A study of Mus musculus with 2 samples.

Results

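Genes of mitochondrial protein import and the chaperones that fold imported proteins were followed on 2 microarrays of uterine stromal cells. Members were chosen by gene symbol, as every probe set whose single annotated symbol was a Timm, Tomm or Chchd gene with a number or one of 16 named genes, from the chaperonin Hspd1 to the protease Lonp1. The rule found 79 probe sets of 42 genes, out of 20380 probe sets with 1 symbol for 12393 genes. The signals of both arrays were known when the gene set was put forward, so all values below are descriptions. Another 9 probe sets that match the rule carry several symbols and were left out, and Phb and Dnajc19 have no probe set with 1 symbol. The members were placed by known location, and Tomm34 by its name, in the outer membrane (8 genes), the intermembrane space (11), the inner membrane (12) and the matrix (11).

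The uterine stroma is the connective tissue under the uterine epithelium, whose cells decidualize around an implanting embryo. They were released by enzymatic digestion of uterine horns on day 5 of pregnancy, and cells of 3 animals were pooled for each genotype. One array holds RNA from mice titled Hif1 cKO and labelled Hif2 alpha-null, and the other holds RNA from Hif1 flox controls labelled Hif2 alpha-intact. The breeding note names Hif1 floxed mice, PRcre (Cre recombinase under the progesterone receptor promoter, active in uterine cells that express that receptor) and ablation of Rac1, so the labels do not agree on the deleted gene and the array is called knockout-labelled. Age and strain are not given in the sources used here. Each group has a single array, so there is no replicate and no test, and the number of arrays limits the precision.

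Most mitochondrial proteins are made in the cytosol and imported. Receptors and the channel of the outer membrane (the TOM complex) take up precursors, the SAM complex inserts barrel proteins, and small Tim chaperones carry hydrophobic precursors through the intermembrane space. The TIM22 complex inserts carriers into the inner membrane, whereas the TIM23 complex and its motor pull precursors into the matrix, where a peptidase clips the targeting sequence and Hsp60 with Hsp10 folds the protein. Decidualizing stroma is a growing and secretory tissue with a large demand for newly made protein.

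The promoter windows of 3 members are shown as examples, and no link between their letters and the signals was tested. Hspe1 shares a divergent promoter region with Hspd1 and differed from it in signal. The small Tim genes Timm10b (2-fold or more lower) and Timm10 (lower by less than 2-fold) hold the same motif. The windows are from RefSeq (GRCm38.p6), run from 250 bases before to 50 bases after the start site, and read 5′ to 3′ on the plus strand. For Hspe1, at chr1:55087898-55088197, capitals mark 2 neighbouring matches to the paired heat shock unit TTCNNGAA (N, any base), and for Timm10b, at chr7:105640195-105640494, and Timm10, at chr2:84826771-84827070, they mark the ETS and GABPA letters CCGGAAGT on either strand.
Hspe1: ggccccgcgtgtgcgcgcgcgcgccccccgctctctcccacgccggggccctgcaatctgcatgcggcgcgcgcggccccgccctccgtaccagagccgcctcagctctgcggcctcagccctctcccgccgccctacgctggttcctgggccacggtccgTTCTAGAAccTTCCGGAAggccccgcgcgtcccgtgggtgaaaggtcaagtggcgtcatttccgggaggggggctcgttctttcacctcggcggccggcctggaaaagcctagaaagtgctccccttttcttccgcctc
Timm10b: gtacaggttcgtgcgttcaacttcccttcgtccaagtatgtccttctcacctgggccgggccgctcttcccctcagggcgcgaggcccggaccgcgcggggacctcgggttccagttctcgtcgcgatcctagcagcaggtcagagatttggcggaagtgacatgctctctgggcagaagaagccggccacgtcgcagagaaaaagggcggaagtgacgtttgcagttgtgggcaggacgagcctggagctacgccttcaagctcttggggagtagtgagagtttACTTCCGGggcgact
Timm10: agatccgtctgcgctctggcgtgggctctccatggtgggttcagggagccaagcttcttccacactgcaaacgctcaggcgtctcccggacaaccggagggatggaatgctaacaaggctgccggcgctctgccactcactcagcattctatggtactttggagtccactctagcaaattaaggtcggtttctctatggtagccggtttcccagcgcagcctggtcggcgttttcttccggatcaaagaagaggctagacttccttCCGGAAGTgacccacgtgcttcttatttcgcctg
The start of Hspe1 lies at position 55088148 of chromosome 1, and the 2 annotated starts of Hspd1, on the other strand, lie 95 bases after it and 216 bases before it. The matches to the heat shock unit, a sequence read by the factor Hsf1, span bases -89 to -72 relative to the Hspe1 start, so they lie between the Hspd1 start at 216 bases before and the Hspe1 start. The ETS and GABPA matches lie after the start site, at bases 35 to 42 in Timm10b and 16 to 23 in Timm10.

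Windows were found for 37 of the 42 members, and 5 motifs were searched on both strands. The heat shock unit was held by 9 members (24.3%, against 8.40% of 6965 compared genes with a window and 9.60% of all 27025 genes). They were Clpp, Hspd1, Hspe1, Timm8a2, Timm9, Timm10, Timm13, Tomm20 and Tomm22. The ETS and GABPA letters, a motif of a factor known for activating nuclear genes of mitochondria, were held by 9 members (24.3%, against 9.42% of compared genes and 4.31% of all genes). These were Chchd5, Phb2, Pmpcb, Timm8a2, Timm10, Timm10b, Timm23, Timm29 and Tomm70a. A form of the NRF1 motif, GCGCATGCG, was held by Timm13 alone (2.70%, against 4.18% and 1.95%), and the YY1 motif AAGATGGCG by 2 (5.41%, against 3.66% and 1.64%). The core of the hypoxia response element, ACGTG, was held by 11 members (29.7%, against 29.8% of compared genes and 21.8% of all genes). These are matches of letters, not binding sites, and overlap between motifs was not removed. A relation between the letters and the ratios was not tested. Longer forms of the heat shock and NRF1 motifs were searched first and were replaced by these shorter ones after their counts had been seen. The longer forms gave other counts, which are not reported here, so these shares hold only for the letters given.

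All values are MAS5 signals, a linear intensity per probe set, and each log2 ratio sets the knockout-labelled array over the control array, with signals under 19.7 (the 40th percentile of both arrays, the floor) set to that value. Where a gene has several probe sets, its level is that of the one with the highest mean signal. The probe sets of 1 gene disagreed (2660 genes), with an SD of 0.64 for a single log2 ratio, which leaves out the spread between animals, pools and arrays. Hif1a had a signal of 1544 on the knockout-labelled array, against 721 on the control array, Epas1 (Hif2 alpha) had 78.1 and 59.4, and Rac1 had 757 and 1038. A further probe set of Rac1 had 332 and 664 (log2 ratio -1.0001), and one of Hif1a had 297 and 114 (1.38). All 3 genes were above the floor on both arrays at these probe sets, and where the probes lie relative to the deleted exons was not analysed here. The ratio of 3′ to 5′ signal of b-actin was 16.0 on the knockout-labelled array and 2.27 on the control array, and that of Gapdh was 7.25 and 1.49, so a difference in RNA ends stands beside every result below and its part was not tested. In bulk cells, fewer cells of a type and less RNA per cell cannot be told apart.

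Of the 42 members, 41 were above the floor on at least 1 array, and Timm8a2 was at the floor on both. Among the 41, 12 lay 2-fold or more below the control array and 1 lay 2-fold or more above it, where 13.0% of all 8593 compared genes lay that far below and 6.21% that far above. By any amount, 25 members were lower and 16 higher, where 55.3% of all compared genes were lower and 44.7% higher. With each array centred on its median, 5 of 41 members were 2-fold or more below and 5 were 2-fold or more above, where 7.79% of all genes so centred lay that far below and 13.3% that far above. The median log2 ratio was -0.17 for the members and -0.10 for all genes. The median was 0.39 in the outer membrane, -0.91 in the intermembrane space, -0.10 in the inner membrane and -0.12 in the matrix, and differences between compartments were not tested. The outer membrane median turned to -0.12, -0.91 or -1.02 under 3 other choices of probe set, and those of the inner membrane and the matrix turned to 0.18 and 0.16 with centred arrays.

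**Figure D1:**
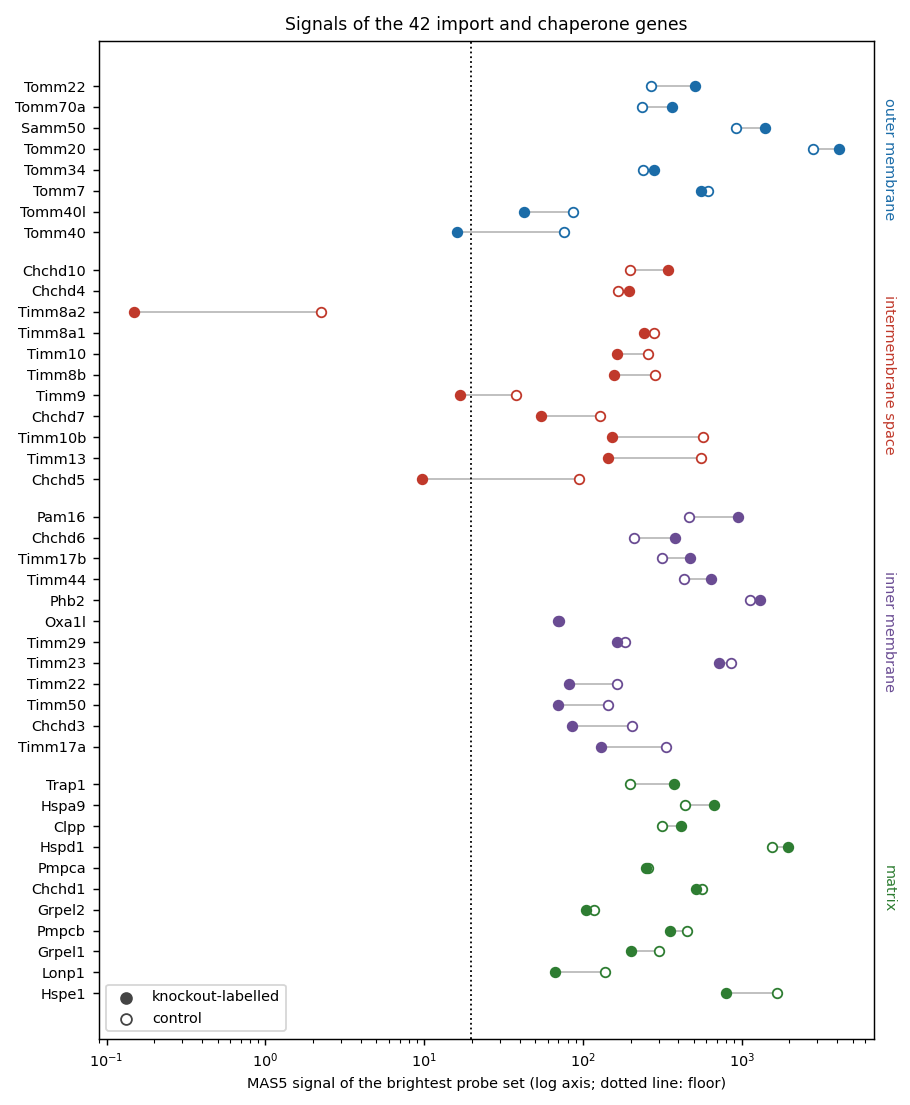
MAS5 signal (log axis) of the brightest probe set of each of the 42 members, with filled points for the knockout-labelled array and open points for the control array, grouped by compartment and ordered by log2 ratio. Tomm40, Timm9 and Chchd5 lie below the floor of 19.7 (dotted line) on the knockout-labelled array only, and Timm8a2 on both.

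In the outer membrane, the genes of the import receptors were higher on the knockout-labelled array at their brightest probe sets and the channel genes were lower. The receptor genes also had higher signals than the channel genes. By mean signal, 5 equal groups of all compared genes had median log2 ratios of -0.24, -0.36, -0.19, -0.0019 and 0.31 from dimmest to brightest. The members in these groups had medians of -1.94, -1.02, -1.06, -0.04 and 0.33. The part of signal level in the contrast was not tested. The channel gene Tomm40 had a signal of 16.1 on the knockout-labelled array, below the floor, and 75.5 on the control array, so it was at least 3.82-fold lower. Its paralog Tomm40l had 42.8 on the knockout-labelled array and 86.9 on the control array, a log2 ratio of -1.02. Both rest on a single probe set. Under the other settings tried, the log2 ratio of Tomm40 ran from -2.23 to -0.19, past 2-fold in 8 of 9. That of Tomm40l ran from -1.02 to -0.39, past 2-fold in 6 of 11. Tomm40 and Tomm40l were the 2 of 8 outer membrane members at least 2-fold lower, beside 13.0% of all compared genes. None of the 8 was at least 2-fold higher, beside 6.21% of all compared genes.

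The receptor Tomm20, which binds targeting sequences, had 4108 on the knockout-labelled array and 2801 on the control array (log2 ratio 0.55). The receptor Tomm70a, which docks chaperone-bound carrier precursors, had 364 and 236 (0.63), and Tomm22, the central receptor, had 508 and 269.8 (0.91). All 4 probe sets of Tomm70a were higher, at log2 ratios from 0.03 to 1.63, but the other receptors were not of 1 sign. Tomm20 gave 0.24 to 0.55 at 4 probe sets and -1.35 at another, with signals of 292 and 746, and Tomm22 gave -1.19 at its other probe set, with 152 and 347. Samm50, the core of the SAM complex, likewise gave 0.61 at a probe set with signals of 1397 and 915 and -0.81 at one with 159 and 278. Tomm7, a small subunit that modulates TOM assembly, had 550.5 and 610.4 (-0.15), with -1.15 and 0.11 at further probe sets, and Tomm34, a cytosolic cochaperone despite its name, had 282 and 239 (0.23). Without Tomm34 the outer membrane median was 0.55 over 7 genes. The direction of Tomm20, Tomm22, Samm50 and Tomm7 was thus not settled between probe sets.

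In the intermembrane space, 6 of the 7 small Tim genes on the array were compared, and all 6 had lower signals on the knockout-labelled array at their brightest probe sets, beside 55.3% of all compared genes. Past 2-fold, 2 of the 6 were lower, beside 13.0% of all compared genes, and the other 4 were lower by less. With each array centred on its median, 5 of the 6 were lower, and Timm8a1 was at 0.08. The small Tims work as hexameric chaperones, Timm9 with Timm10 and Timm8a1 with Timm13, and Timm10b is part of the TIM22 complex.

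Timm13 had a signal of 145 on the knockout-labelled array and 558 on the control array, a log2 ratio of -1.95 from its only probe set. Timm10b had 152 and 573 at its brightest probe set (-1.91). Its next probe sets had 185 and 371 (-1.01) and 132 and 269 (-1.03), so all 3 that were compared lay at least 2-fold lower, and the remaining one was at the floor on both arrays. Timm10b was the member with the most probe sets past 2-fold in the same direction. Timm8b had 156 and 284 (-0.87) and Timm10 had 163 and 257 (-0.66), each with 1 probe set. Timm9 had 16.8, below the floor, and 38.1, so it was at least 1.93-fold lower. Timm8a1 had 243 and 280.03 (-0.20), and its dimmer probe set gave -1.001 with 33.5 and 67.0.

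The other intermembrane members carry paired cysteine motifs and went both ways. Chchd5 had 9.63 on the knockout-labelled array, below the floor, and 94.0 on the control array, so it was at least 4.76-fold lower, the lowest ratio of all members. Its other probe set gave -0.98 with 21.3 and 42.1. Under the other settings tried, the log2 ratio of Chchd5 ran from -3.29 to -0.50, the latter with the floor at the 60th percentile. Chchd7 had 54.8 and 128 (-1.23). Chchd4, the oxidoreductase known as Mia40 that traps cysteine-rich precursors such as the small Tims by disulfide transfer, had 195 and 168 (0.22). Chchd4 thus differed little, and a link to the levels of the small Tims was not tested. Chchd10 had 343 and 197 (0.80), with 0.15 at its other probe set.

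**Figure D2:**
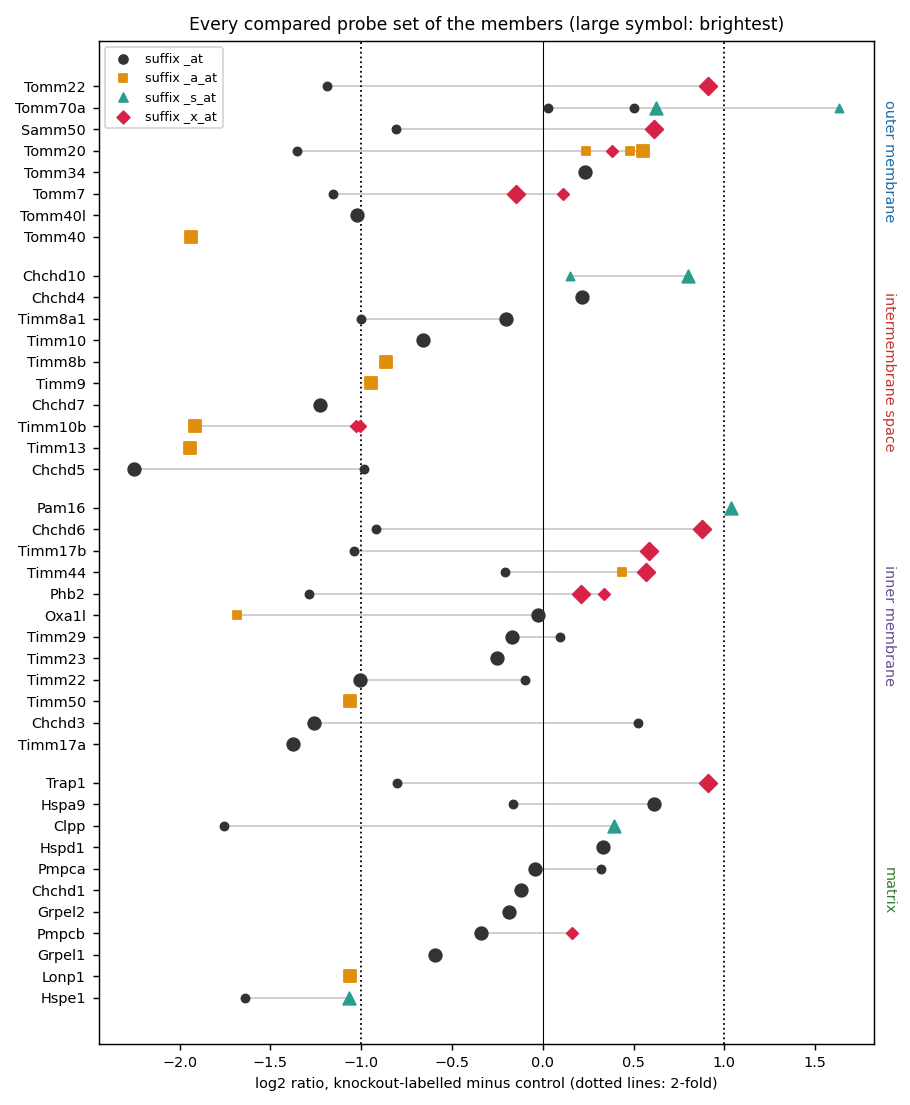
Log2 ratio, knockout-labelled minus control, of each compared probe set of 41 members, with the brightest drawn larger and the suffix of the probe set given by colour and shape. Dotted lines mark 2-fold. The 3 compared probe sets of Timm10b all lie at or left of the lower line, whereas those of Tomm22, Trap1, Phb2 and Clpp lie on both sides of 0.

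In the inner membrane, Timm17a, Timm50, Timm23, Timm22 and Timm29 of TIM23 and TIM22 were lower at their brightest probe sets, by differing amounts. Timm17b was higher at its brightest one. Of all compared genes, 55.3% were lower. Timm17a, a core subunit of TIM23, had 129 on the knockout-labelled array and 335 on the control array (log2 ratio -1.38, 1 probe set). Its paralog Timm17b had 471 and 314 (0.59) at an _x_at probe set and 58.5 and 120.1 (-1.04) at an _at one (kinds explained below). Timm50, the receptor of TIM23, had 69.2 and 145 (-1.06), and Timm23, the channel partner of Timm17a, had 720.03 and 857 (-0.25), each with 1 probe set. Timm22, the channel of the carrier pathway, had 81.8 and 164 (-1.01), and its other probe set was below the floor on the knockout-labelled array with a log2 ratio of -0.10. Timm29, a further TIM22 subunit, had 164 and 185 (-0.17), and gave 0.09 at its other probe set.

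The TIM23 complex and its motor had 9 compared genes (median log2 ratio -0.18). Of these, 4 were higher and 5 lower, beside 44.7% and 55.3% of all compared genes. Past 2-fold 1 was higher and 2 lower, beside 6.21% and 13.0% of all compared genes. Of the higher ones, Timm17b and Timm44 were read at _x_at probe sets and were lower at their _at ones. Pam16 was read at an _s_at probe set and Hspa9 at an _at one. Pam16, which regulates the motor at the channel, had 950 on the knockout-labelled array and 462 on the control array (log2 ratio 1.04, 1 probe set). It was the only member at least 2-fold higher, and was at 0.93 after removal of the loess trend. Timm44, which tethers the motor, had 645 and 435 (0.57), and gave 0.44 and -0.21 at its other probe sets. Chchd3, a subunit of the MICOS complex that shapes cristae, had 85.1 and 204 (-1.26) but 0.52 at a probe set with 37.5 and 26.0. Chchd6, its partner in MICOS, had 383 and 209 (0.87) and gave -0.92 at its other probe set. Phb2, a prohibitin scaffold subunit, had 1308 and 1132 (0.21), and gave 0.34 and -1.28 at its other probe sets, at the last of which signals were 243 and 592. Oxa1l, the insertase for proteins made in the matrix, had 69.8 and 70.9 (-0.02) and gave -1.68 at its other probe set. So 4 of 12 inner membrane members were at least 2-fold lower, beside 13.0% of all compared genes, namely Timm17a, Chchd3, Timm50 and Timm22.

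In the matrix, the chaperonin gene Hspe1 was lower on the knockout-labelled array and Hspd1 differed little. Hspe1, which encodes the lid Hsp10, had a signal of 799.6 on the knockout-labelled array and 1676 on the control array (log2 ratio -1.07). Its other probe set had 121 and 378 (-1.64), so both were at least 2-fold lower. Hspd1, which encodes the Hsp60 ring, had 1950.2 and 1552 (0.33, 1 probe set). The genes share the promoter region shown above, and their log2 ratios differed by 1.40. For probe sets of 1 gene, the SD of a difference was 0.91 and its root mean square 0.99. The Hspe1 value came from an _s_at probe set and the Hspd1 value from an _at one (kinds explained below).

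The motor chaperone Hspa9 (mortalin, the Hsp70 of the matrix) had 668 on the knockout-labelled array and 436 on the control array (log2 ratio 0.61), and 482 and 540.02 at a second probe set (-0.16), while its other 2 were at the floor on both arrays. Its nucleotide exchange factors Grpel1 and Grpel2 had log2 ratios of -0.59 (signals 199.5 and 301) and -0.18 (104 and 118). The processing peptidase subunits Pmpca and Pmpcb had -0.04 (249 and 257) and -0.34 (355 and 449), and their other probe sets gave 0.32 and 0.16, so precursor clipping genes differed little. Of the proteases, Lonp1 had 66.5 and 139 (-1.06, 1 probe set), and Clpp had 414 and 316 (0.39) at one probe set and 54.7 and 184 (-1.75) at the other. Trap1, the Hsp90 of mitochondria, had 374 and 199 (0.91) at one and 178 and 309 (-0.80) at the other. Chchd1, a mitochondrial ribosomal protein, had 519 and 564 (-0.12). Thus Hspe1 and Lonp1 were the matrix members past 2-fold, 2 of 11 (18.2%), beside 13.0% of all compared genes that far below.

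The compared probe sets of a member often disagreed. Of 23 members with several, 15 had both signs, 6 were lower throughout (Chchd5, Hspe1, Oxa1l, Timm10b, Timm22 and Timm8a1) and 2 higher throughout (Chchd10 and Tomm70a). Counted by probe set, 23 of 73 were 2-fold or more below control and 2 that far above, where the shares of all 13284 compared probe sets were 13.9% below and 6.84% above. Of the 13 members past 2-fold, 5 had several compared probe sets, and in 4 of these all had the same sign (Chchd5, Hspe1, Timm10b and Timm22), with Chchd3 as the exception.

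Of the 15 members with both signs, 10 had probe sets of the kinds _x_at and _at, 4 (Chchd3, Hspa9, Pmpca and Timm29) disagreed between plain _at probe sets, and Clpp disagreed between _s_at and _at. The kind of probe set was not used by the rule. The suffix _at marks probes unique to a transcript, _a_at probes shared by transcripts of 1 gene, _s_at probes shared by several transcripts, and _x_at sets in which some probes may also bind other sequences. Among member probe sets above the floor on both arrays, 29 of 38 with the suffix _at were lower and 9 higher, with a median log2 ratio of -0.47. With the suffix _x_at, 11 of 14 were higher, with a median of 0.36. Over all genes, 41.8% of such _at probe sets and 72.8% of such _x_at ones were higher, with medians of -0.15 and 0.51. In all 10 members that had both kinds, the _x_at value lay above the _at value, by 0.50 in Pmpcb to 2.10 in Tomm22 and by a median of 1.59. Over the 374 genes of the array with both kinds it lay above in 86.9%, with a median difference of 1.03, so the split was a feature of the whole array. In 9 of the 10 members the _x_at value was above 0 and the _at value below 0, beside 62.6% of the 374 genes. Tomm7 was the exception (-0.02 and -1.15).

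**Figure D3:**
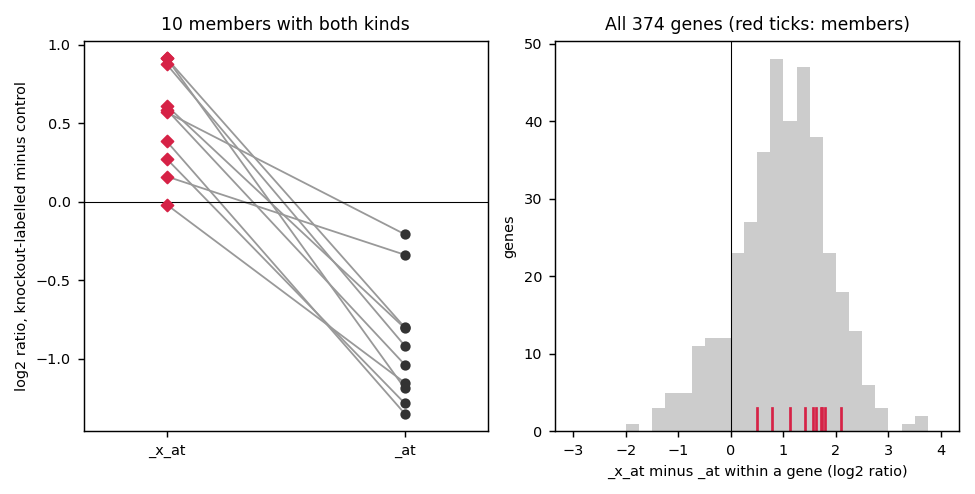
Left, log2 ratio (knockout-labelled minus control) of the _x_at and the plain _at probe sets of the 10 members with both, joined by gene. Right, histogram of the _x_at minus _at difference over 374 genes, with red ticks for the 10 members, which all lie above 0.

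The choice between these probe sets set the direction of the outer membrane. Without _s_at and _x_at probe sets, the outer membrane median was -0.91 in place of 0.39, the inner membrane median -1.01 in place of -0.10, and 17 of 39 compared members were 2-fold or more below control and 0 that far above, where 15.4% of all genes under the same choice lay below and 5.57% above. The intermembrane space kept its direction, with a median between -1.02 and -0.66 under all 11 other settings tried. Of its compared genes, only Chchd10 was read at an _s_at or _x_at probe set, so leaving these out could change that median little. Updated symbols left it at -0.91.

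Other genes of import and quality control were described from a list that left out the members. Past 2-fold, 4 of 24 genes were lower and 1 was higher (median -0.12). For this list and those below, the shares of all compared genes are 13.0% lower and 6.21% higher. Immp1l, a subunit of the inner membrane peptidase, had 96.3 on the knockout-labelled array and 389 on the control array (log2 ratio -2.01), and Hscb, a cochaperone of iron-sulfur cluster assembly, had 24.7 and 86.6 (-1.81). Immt, the MICOS core subunit also called mitofilin, was lower at its 3 probe sets (-1.43, -1.45, and -1.06 at one under the floor on the knockout-labelled array). Parl, a rhomboid protease, gave -1.31. The protease Yme1l1, which was named with Parl after its value was seen, was higher at its 3 probe sets (1.08, 1.79 and 1.33).

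Cytosolic chaperones that hand over precursors had a median of 0.40 over 17 genes, and past 2-fold 2 were lower and 1 was higher. Stip1, which links Hsp70 and Hsp90, had 69.2 on the knockout-labelled array and 199 on the control array (-1.53), and Naca, a ribosome-bound factor, gave -1.08 and -1.80 at its probe sets. Hsp90aa1 had 2735 and 1251 (1.13), with 0.97 and 0.47 at others. Respiratory chain and ATP synthase genes, with assembly factors, had a median of 0.14 over 86 genes, and past 2-fold 15 were lower and 3 higher. Their lowest ratios above the floor were those of Cox8a (-2.76), Atp5g1 (-1.97) and Uqcrh (-1.96). Mitochondrial ribosomal proteins had a median of -0.54 over 74 genes, and past 2-fold 22 were lower and 2 higher, led by Mrpl27 (-2.31), Mrpl54 (-2.24) and Mrps16 (-2.17). Beside these lists the intermembrane space members had the lowest median at the brightest probe sets, -0.91 over 10 genes. The endothelial and myeloid marker lists given below had lower ones, and the difference between lists was not tested. Without _s_at and _x_at probe sets the medians were -0.95 in the intermembrane space and -1.01 in the inner membrane. With plain _at probe sets only they were -0.66 and -0.96, beside -1.02 in the outer membrane and -0.75 in the respiratory chain list.

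**Figure D4:**
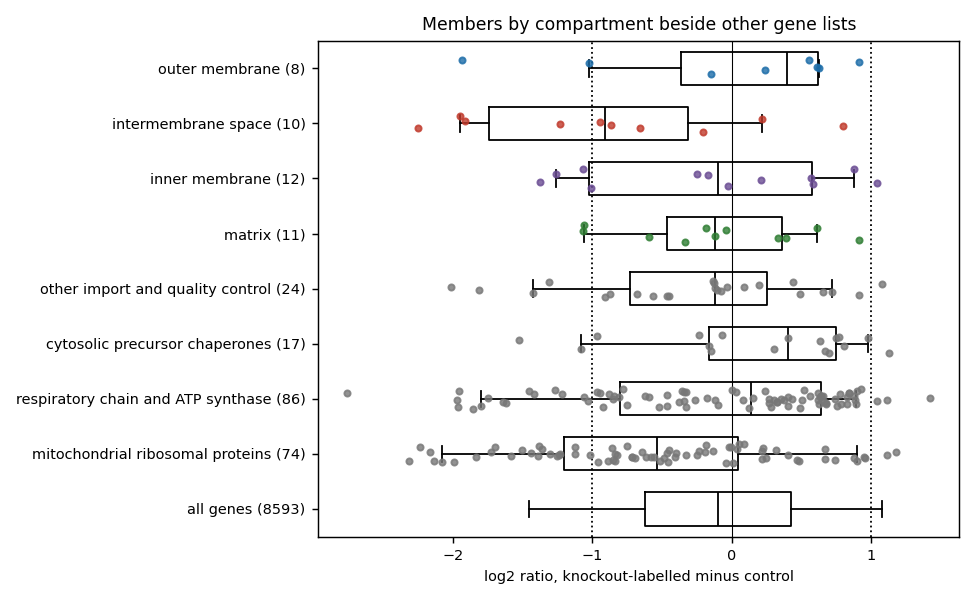
Log2 ratios (knockout-labelled minus control) of the compared members in 4 compartments, of 4 other gene lists and of all 8593 compared genes, with the number of genes in brackets. Boxes give the quartiles and the median, whiskers the 5th and 95th percentiles, points single genes, and dotted lines mark 2-fold. At these brightest probe sets the intermembrane space box lies lowest, with a median of -0.91.

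Ratios also differed by gene length and among cell markers. Over 5 equal groups of 1717 genes by genomic span, the median log2 ratio ran through -0.42, -0.24, -0.10, 0.04 and 0.12 from the shortest to the longest genes. Of the 41 compared members, 32 lay in the 2 shortest groups (up to 16307 bases), with medians of -0.19 over 16 members and -0.39 over 16. Marker genes of uterine stroma had a summed signal of 38130 on the knockout-labelled array and 28742 on the control array, with a median log2 ratio of 0.0027 and 2 of 15 at least 2-fold lower. Endothelial markers had 2119 and 3656, with a median of -0.94, 5 of 11 at least 2-fold lower and Tie1 under the floor on the knockout-labelled array only. The sums were 12383 and 12347 for smooth muscle and pericytes (median -0.80, 3 of 10 at least 2-fold lower) and 4357 and 4722 for myeloid cells (median -1.23, 6 of 11 lower and 2 higher by at least 2-fold). They were 2240.0 and 3023 for epithelium (median -0.04, 3 of 12 compared lower, 1 higher), and 710.1 and 883 for lymphocytes and NK cells (median -0.45, 3 of 7 compared lower, 1 higher). Krt19, Cd3e and Ms4a1 were at the floor on both arrays. The myeloid marker C1qb, counted and summed as higher, had 1008 and 337 (log2 ratio 1.58) at an _x_at probe set. It gave 0.54 at another _x_at probe set, but -2.68 at its _at one, with 48.3 and 310. The stromal markers Col3a1, Vim and Dcn had signals of 10987, 7436 and 7261 on the knockout-labelled array, against 7439, 4701 and 4641 on the control array, while Hoxa11 had 108 and 389 (log2 ratio -1.85), Des had 228 and 729 (-1.67), Pgr had 29.7 and 52.6 (-0.83), and Esr1 and Hand2 lay close to the floor. Of the 15 stromal markers, 8 were higher and 7 lower by any amount. The part of other cell types and of gene length in the members' ratios was not tested.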

How the data were processed

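Total RNA of stromal cells, pooled over 3 animals for each of 2 genotypes, was hybridised to 2 Mouse Genome 430A 2.0 arrays (Affymetrix) after amplification with the Affymetrix 3′ Express kit, per the labels' protocols. The authors deposited 1 intensity per probe set on a linear scale, a MAS5 signal from Affymetrix Expression Console (version 1), per the submitters' processing notes, and detection calls were not used here. The arrays had the same mean signal of 150.1 after trimming 2% at each end, so the deposited scaling was kept. Samples were grouped from their titles.

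Probe sets took their genes from the platform annotation, and 20351 probe sets with 1 symbol were matched to RefSeq (GRCm38.p6) by Entrez identifier. Signals under the 40th percentile (19.7, the floor) were set to it and all were put on a log2 scale. A gene took its probe set of highest mean log2 signal, genes at the floor on both arrays (3800) were left out, and a gene at the floor on 1 array gives a bound. Genes were counted at 2-fold, with no test. A median was taken to move when it shifted by more than the SD of the difference between probe sets (0.91) divided by the square root of the number of genes. Named genes were all members and up to 3 of each other list with the largest ratio past 2-fold. The members and lists were chosen with earlier results of these data known. Protein sequences were not analysed here, so genomic span stands in for the planned protein length. The size rule was tested on simulated data. Python 3.11.15, pandas 2.3.3 and statsmodels 0.14.6 were used. Alternatives were other scalings, floors, a pseudocount, probe set choices and fold thresholds.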

Additional observations from a re-analysis of the deposited data

How the results depend on the processing

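No paired analysis was possible because each group has 1 array and no replicate. The counts of members at least 2-fold higher and lower, 1 and 12 as given, were 2 and 8 after quantile normalization, 5 and 5 after median centring, 0 and 4 at 3-fold and 2 and 23 by probe set. After quantile normalization, 706 of all 8587 compared genes were at least 2-fold higher and 819 lower. The members at least 2-fold higher numbered 0 after removal of the loess trend, 0 without _s_at and _x_at probe sets, 0 with plain _at probe sets only (chosen after seeing the data) and 9 at 1.5-fold. Beside these, 653 of 8585 compared genes were at least 2-fold higher after loess. The counts were 461 of 8275 without _s_at and _x_at, and 394 of 6889 with plain _at sets only. All genes at least 2-fold higher numbered 534 as given, 1146 after median centring, 312 with the median over probe sets, 1592 at 1.5-fold, 106 at 3-fold and 909 by probe set, and those lower 1119 as given, 670 after median centring, 601 with the floor at the 60th percentile, 2268 at 1.5-fold, 330 at 3-fold and 1844 by probe set. Median centring moved the median of all genes to 0.16, against -0.10 as deposited, and turned the medians of all members to 0.11, of the inner membrane to 0.18 and of the matrix to 0.16, which the shift by construction accounts for. The inner membrane was also turned by quantile normalization (0.024) and the matrix by loess (0.0042). The outer membrane turned with the median over probe sets (-0.12), without _s_at and _x_at (-0.91) and with plain _at sets only (-1.02). All members moved to -0.87 and the inner membrane to -1.01 without _s_at and _x_at, and to -0.73 and -0.96 with plain _at sets only. Among other lists, median centring turned import and quality control to 0.16, quantile normalization turned it to 0.049 and all genes to 0.032, and loess turned it to 0.032 and the respiratory chain to -0.058. The median over probe sets turned the respiratory chain to -0.32 and cytosolic chaperones to -0.073, leaving out _s_at and _x_at turned them to -0.33 and -0.068, and plain _at sets turned the respiratory chain to -0.75. Leaving out Tomm34 (chosen after seeing the data) gave an outer membrane median of 0.55. The intermembrane space kept its sign under all 11 settings. Updated symbols left its median unchanged, and leaving out _s_at and _x_at took out only Chchd10 of its compared genes. Of 13 members past 2-fold, Timm10b, Timm13 and Timm17a stayed past it in the same direction under all settings that gave a value, and no member past 2-fold changed sign. Other causes were not tested, and signals near the floor limit Tomm40, Timm9 and Chchd5 to bounds.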

Other observations

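Regulators of mitochondrial stress and biogenesis went both ways. Past 2-fold, 3 of 13 compared genes were lower and 2 higher, and the median log2 ratio was -0.06. Atf5, a transcription factor of the mitochondrial unfolded protein response in mammals, had a signal of 66.2 on the knockout-labelled array and 308 on the control array (log2 ratio -2.22, 1 probe set). Esrra, a nuclear receptor of mitochondrial gene expression, and Myc, a growth regulator, had log2 ratios of -1.06 and -1.06, and the coactivator Ppargc1b had 1.03. Myc and Ppargc1b were named after their values were seen. Atf4, a transcription factor of the integrated stress response, gave 1.32 at an _x_at probe set and -0.87 at an _at probe set, so its direction was not settled. The porins Vdac1, Vdac2 and Vdac3, the metabolite channels of the outer membrane, had none past 2-fold (median 0.41).

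Proliferation genes also split. Past 2-fold, 4 of 16 compared genes were lower and 1 was higher (median -0.20). The mitotic kinase Plk1 had 35.3 on the knockout-labelled array and 131 on the control array (log2 ratio -1.89), and the replication helicase subunit Mcm5 had 41.99 and 143 (-1.77), while the proliferation marker Mki67 had 395 and 136 (1.54).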
